A study of Homo sapiens with 6 samples.

Results

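The thioredoxin and peroxiredoxin system was described through 10 genes, chosen by symbol: the thioredoxins TXN and TXN2, the thioredoxin reductases TXNRD1 and TXNRD2, and the peroxiredoxins PRDX1 to PRDX6. All 10 of 10 were found among the 17721 genes of the deposited table, and all 10 passed the filter on low counts. The RNA was that of MDA-MB-231BR, an established line derived from the triple-negative human breast cancer line MDA-MB-231 and selected for growth in brain. The study asked what ACSS2, which converts acetate to acetyl-CoA in the cytosol and nucleus, contributes to breast cancer growth in the brain, with ferroptosis named in its title. In the control group (3 libraries) the cells stably carried a control shRNA, and in the other group (3 libraries) an shRNA against ACSS2. Both groups had gone through lentiviral transduction and antibiotic selection and grew as monocultures in medium with serum. The labels give 3 biological replicates per group but do not say how many hairpins against ACSS2 were used, nor whether the replicates are separate transductions. A batch tag numbers the libraries 1 to 3 in both groups, and libraries with the same number are called a pair below.

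Thioredoxins are small proteins that reduce disulfide bonds in other proteins through a pair of active-site cysteines, and thioredoxin reductases, which are selenoproteins, return them to the reduced state with electrons from NADPH. Most peroxiredoxins use thioredoxin to reduce hydrogen peroxide and organic peroxides. The cytosol has TXN, TXNRD1, PRDX1, PRDX2 and PRDX6, while mitochondria have a separate set, TXN2, TXNRD2 and PRDX3, encoded in the nucleus. PRDX4 works in the endoplasmic reticulum, and PRDX5 is found in mitochondria, peroxisomes and the cytosol.

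Of the 10 genes, TXN2 had the largest difference between the groups: its mRNA was 3.23-fold lower in ACSS2 shRNA cells, and every ACSS2 shRNA library lay far below every control library. The cytosolic TXN and PRDX6 were lower by 1.38-fold and 1.34-fold in the fit with replicate number as a block, and fell in that fit only. The other mitochondrial members, TXNRD2 and PRDX3, passed the test in neither fit, with fold differences of 1.15 and 1.19 with the block. No member was called higher in either fit. The genes were proposed with results of this contrast known, TXN2 among them, so their differences between the groups are a description: calls of the fit over all genes are counted, and no p-value of these fits is given for them. The q values quoted once from the authors' deposited table are likewise no independent support.

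The libraries held 15048275 to 18608124 counts, and 13003 genes were tested. ACSS2 itself was at 76.3, 71.2 and 164 CPM (counts scaled to library size by TMM) in control replicates 1, 2 and 3 and at 11.1, 50.5 and 88.7 CPM in ACSS2 shRNA replicates 1, 2 and 3. Each pair had less of it with the ACSS2 shRNA, but ACSS2 shRNA replicate 3 lay above control replicates 1 and 2. ACSS2 was not called without the block (log2 fold change -1.05, SE 0.64) and was called lower with it (-1.31, SE 0.30). The 5 markers fixed for the MDA-MB-231 lineage (VIM, CD44, EGFR, AXL and CAV1) were at 58.0 TPM or more in every library. Of the luminal markers ESR1 and PGR were at 1.21 TPM or less, GATA3 was at 1.12 to 3.66 TPM and ERBB2 at 26.5 to 42.9 TPM. Of the immune markers, PTPRC and CD3E were at 0.18 TPM or less, while CD68 was at 380 to 888 TPM. Among the neural and endothelial markers, RBFOX3 was at 0.72 to 21.3 TPM, and GFAP, PECAM1 and CDH5 at 4.10 TPM or less. In bulk RNA, fewer cells with a transcript and less transcript per cell cannot be told apart.

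The members differed widely in level. In TPM (transcript share of the library, scaled by gene length), control cells had 761 ± 175 of PRDX2 (SD, n = 3), 579 ± 160 of TXN, 538 ± 91.6 of PRDX5 and 479 ± 46.5 of PRDX1. The control libraries of each of these 4 genes overlapped with those of the next in this order. PRDX6 followed at 189 ± 3.34 TPM, below every PRDX1 value. TXN2 (150 ± 14.7 TPM) and PRDX3 (149 ± 25.4 TPM) did not differ beyond their spread, nor did TXNRD1 (87.95 ± 13.9 TPM) and PRDX4 (86.1 ± 18.6 TPM). TXNRD2 was lowest by far, at 16.2 ± 1.65 TPM. Among the genes tested, PRDX2 stood at percentile 98.7 of control TPM, TXN at 98.3, TXN2 at 92.5 and TXNRD2 at 52.8. In ACSS2 shRNA cells the order changed most for TXN2, from rank 6 to rank 9 of the 10.

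Summed over the 10 genes, the system held 3145, 3108 and 2851 TPM in control replicates 1, 2 and 3 and 3419, 3007 and 2835 TPM in ACSS2 shRNA replicates 1, 2 and 3. These ranges overlap, so the summed level did not separate the groups. The 3 mitochondrial members summed to 322, 338 and 285 TPM in control and to 204, 202 and 190 TPM in ACSS2 shRNA replicates 1, 2 and 3, with no overlap. Within this sum the mean of TXN2 went from 150 TPM in control to 49.7 TPM in ACSS2 shRNA cells. PRDX3 (149 and 134 TPM) and TXNRD2 (16.2 and 14.9 TPM) overlapped between the groups. The 5 cytosolic members, which made up most of the total, summed to 1857 to 2217 TPM in control and 1771 to 2458 TPM in ACSS2 shRNA libraries, and overlapped.

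**Figure D1:**
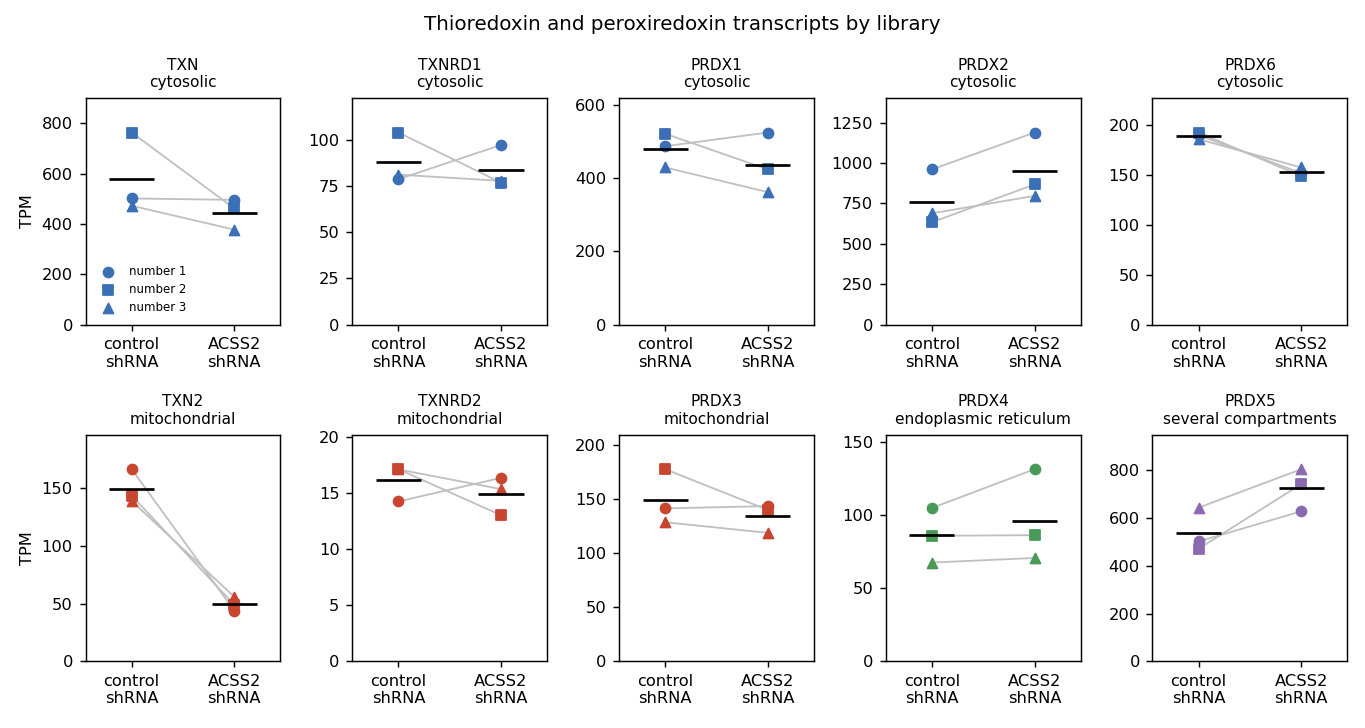
TPM (y axis, from 0) of the 10 genes in control shRNA and ACSS2 shRNA libraries. Each point is 1 library, its shape gives the replicate number, grey lines join libraries of the same number, black bars are group means, and colour gives the compartment. TXN2 lies between 139 and 167 TPM in control and between 43.9 and 56.0 TPM in ACSS2 shRNA libraries, while PRDX4 and TXNRD1 overlap between the groups.

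Mitochondrial thioredoxin, TXN2 (gene ID 25828), lies on chromosome 22, where RefSeq places it from 36467046 to 36481640 (GRCh38, band 22q12.3). TXN2 was at 126, 101 and 105 CPM in control replicates 1, 2 and 3 and at 29.1, 32.7 and 41.2 CPM in the ACSS2 shRNA libraries in the same order. The highest ACSS2 shRNA library thus stayed under the lowest control library by a wide margin. The group levels were 111 ± 13.6 and 34.4 ± 6.20 CPM (SD, n = 3). The log2 fold change, ACSS2 shRNA over control shRNA, was -1.69 (SE 0.19) without and -1.70 (SE 0.14) with the replicate block. By pair the log2 difference was -2.11, -1.62 and -1.35 for numbers 1, 2 and 3. Among the 13003 genes tested, 32 genes counting TXN2 had a log2 fold change as low as this or lower. In the fit with no block, leaving out ACSS2 shRNA replicate 1, 2 or 3 gave TXN2 log2 fold changes of -1.60, -1.68 and -1.84. Replicate 3 had the most remaining ACSS2 mRNA of its group. Relative to the control of the same number, however, ACSS2 was lowered least in pair 2. It went from 76.3 to 11.1 CPM in pair 1, from 71.2 to 50.5 in pair 2 and from 164 to 88.7 in pair 3. A relation of TXN2 to the ACSS2 level was not tested.

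TXN2 was called lower by edgeR in both fits. Without the block it was the only member called, 1 of 10, where 0.0461% of all genes tested were called lower, 0.0231% higher and 0.0692% in either direction. DESeq2 without the block also called TXN2 alone, where it called 3.64% of genes. Without the block, the call did not survive the loss of any 1 library or replicate number, at log2 fold changes between -1.88 and -1.49. With the block, TXN2 was called in all 8 of the settings run.

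In the 3′ UTR, TXN2 was also the only one of the 10 genes to carry the hexamer TGGGTC, which earlier results of these data had picked out among genes lower in ACSS2 shRNA cells. In GENCODE v29 transcripts it occurs once, at chr22:36467266-36467271 on the minus strand (GRCh38), shown here 5′ to 3′ with the hexamer in capitals because it sets TXN2 apart from the other members.
TXN2: aagaacagacccTGGGTCccacactgaaat
Of 12758 tested genes with an annotated 3′ UTR, 30.6% hold TGGGTC in at least 1 coding transcript. Of the 1597 such genes called lower with the replicate block, 45.2% do. Since the hexamer was chosen on this contrast, the match is a description.

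Cytosolic thioredoxin, TXN (gene ID 7295, chromosome 9, 110243810 to 110256507), was at 239, 337 and 226 CPM in control replicates 1, 2 and 3 and at 206, 194 and 174 CPM in the ACSS2 shRNA libraries in the same order. The groups do not overlap in CPM, and control replicate 2 stands above the other libraries. In TPM they do overlap, since ACSS2 shRNA replicate 1 (496 TPM) lies above control replicate 3 (472 TPM). The log2 fold change was -0.48 (SE 0.20) without the block, where TXN was not called, and -0.46 (SE 0.13) with it, where it was called lower. By pair the log2 difference in CPM was -0.21, -0.80 and -0.37. The call with the block was lost without replicate 2, where the log2 fold change was -0.33.

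The ratio of TXN2 to TXN within a library does not depend on the scaling between libraries. In TPM, TXN2 stood at 0.332, 0.188 and 0.294 of TXN in control replicates 1, 2 and 3 and at 0.0886, 0.106 and 0.148 of it in ACSS2 shRNA replicates 1, 2 and 3. Every ACSS2 shRNA library had a lower ratio than every control library. The log2 ratio of counts differed by -1.24 between the group means, where the SD of 3 libraries was 0.43 in control and 0.38 in ACSS2 shRNA cells. By pair it differed by -1.91, -0.83 and -0.98, so the difference was largest in pair 1.

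The reductases showed no such shift. TXNRD1 (gene ID 7296, chromosome 12), the cytosolic reductase, was at 188, 225 and 191 CPM in control replicates 1, 2 and 3 and at 201, 158 and 176 CPM in the ACSS2 shRNA libraries in the same order. The groups overlap, and the log2 difference was 0.10, -0.52 and -0.11 by pair, so pair 1 went against the other pairs. TXNRD2 (gene ID 10587, chromosome 22), the mitochondrial reductase, was at 17.4, 19.3 and 21.8 CPM in control and at 17.5, 14.0 and 19.4 CPM in ACSS2 shRNA replicates 1, 2 and 3. It overlaps in the same way, with 0.01, -0.47 and -0.17 by pair. Fitted log2 fold changes without the block were -0.18 (SE 0.17) for TXNRD1 and -0.20 (SE 0.20) for TXNRD2, and neither was called in any setting. The TPM ratio of TXNRD2 to TXNRD1 was 0.165 to 0.211 in control and 0.168 to 0.197 in ACSS2 shRNA libraries, and the log2 count ratio differed by -0.03 between groups whose SDs were 0.22 and 0.19.

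Among the typical 2-Cys peroxiredoxins, which form dimers and draw electrons from thioredoxin, the mitochondrial PRDX3 and the cytosolic PRDX1 had similar small differences. PRDX3 (gene ID 10935, chromosome 10) was at 131, 152 and 118 CPM in control replicates 1, 2 and 3 and at 116, 114 and 106 CPM in the ACSS2 shRNA libraries in the same order. The groups just fail to overlap in CPM, overlap in TPM, and the log2 fold change was -0.26 (SE 0.16) without and -0.25 (SE 0.11) with the block, not called in either. PRDX1 (gene ID 5052, chromosome 1) was at 276, 273 and 243 CPM in control and at 259, 211 and 198 CPM in the ACSS2 shRNA libraries in the same order. Its groups overlap through ACSS2 shRNA replicate 1, and its log2 fold change was -0.25 in both fits (SE 0.17 and 0.12), not called. The log2 count ratio of PRDX3 to PRDX1 differed by 0.00 between the groups, with SDs of 0.13 and 0.15.

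**Figure D2:**
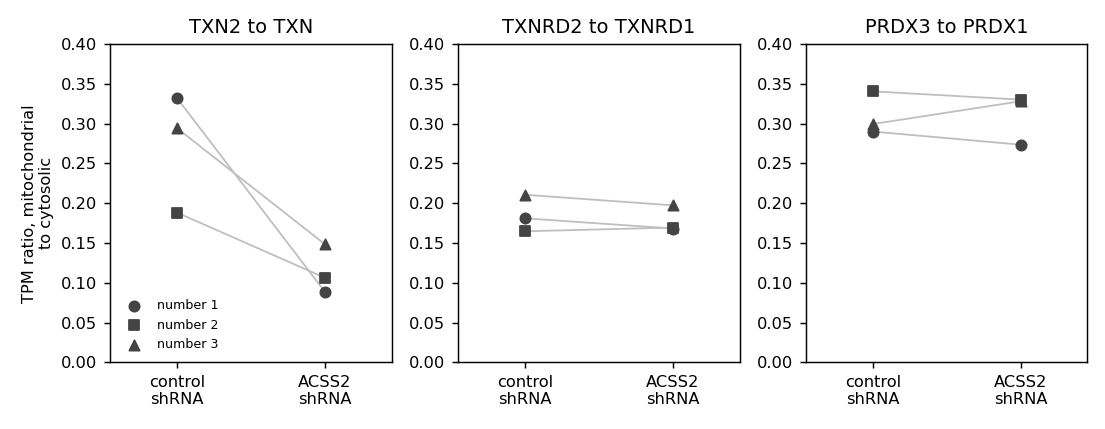
TPM ratio (y axis, from 0) of each mitochondrial gene to its cytosolic counterpart in the 6 libraries. Points are libraries, shapes give the replicate number and grey lines join libraries of the same number. The ratio of TXN2 to TXN is at 0.188 or more in control and at 0.148 or less in ACSS2 shRNA libraries, while the ratios of the reductases and of PRDX3 to PRDX1 overlap.

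PRDX2 (gene ID 7001, chromosome 19), an abundant cytosolic peroxiredoxin best known from red blood cells, was at 557, 339 and 399 CPM in control replicates 1, 2 and 3 and at 602, 441 and 446 CPM in ACSS2 shRNA replicates 1, 2 and 3. It was higher in the ACSS2 shRNA library of every pair, by 0.11, 0.38 and 0.16 on the log2 scale, but libraries numbered 1 stood above the rest and the groups overlap. The log2 fold change was 0.20 (SE 0.23) without and 0.22 (SE 0.12) with the block, and it was called in neither. PRDX4 (gene ID 10549, chromosome X), the peroxiredoxin of the endoplasmic reticulum, was at 53.4, 40.5 and 34.5 CPM in control and at 58.4, 38.6 and 34.7 CPM in the ACSS2 shRNA libraries in the same order. Its groups overlap almost fully, and the log2 fold change was 0.04 (SE 0.25) without and 0.03 (SE 0.11) with the block, with a sign that changed under other settings.

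PRDX5, an atypical 2-Cys peroxiredoxin whose catalytic disulfide forms within 1 molecule (gene ID 25824, chromosome 11), was at 232, 204 and 299 CPM in control replicates 1, 2 and 3 and at 255, 303 and 362 CPM in ACSS2 shRNA replicates 1, 2 and 3. It was higher in every pair, by 0.14, 0.57 and 0.27 on the log2 scale, and the groups overlap through control replicate 3. The log2 fold change was 0.32 (SE 0.21) without and 0.33 (SE 0.12) with the block, and not called in either. On log2 TPM with the block, PRDX5 (0.43) and PRDX2 (0.32) were called higher by limma. That scale moves the median log2 fold change of all genes from 0.02 to 0.11, and the share of calls that were higher from 50.8% to 68.2%.

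PRDX6 (gene ID 9588, chromosome 1), the 1-Cys peroxiredoxin, which is reduced by glutathione and also has phospholipase activity, had the smallest SD relative to its mean of the 10 genes in control libraries. PRDX6 was at 182, 170 and 178 CPM in control replicates 1, 2 and 3 and at 127, 125 and 145 CPM in the ACSS2 shRNA libraries in the same order. The groups do not overlap, in CPM or in TPM, and the log2 difference was -0.52, -0.45 and -0.29 by pair. The log2 fold change was -0.42 in both fits (SE 0.15 and 0.11). It was not called without the block and called lower with it, except without replicate 2, where the log2 fold change was -0.44.

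With the block, 3 of 10 members were called lower and 0 higher, where 12.4% of all genes tested were called lower, 12.7% higher and 25.1% in either direction. DESeq2 with the block called the same 3 genes, where it called 18.7% of genes. Without replicate 1, PRDX1 was called lower and PRDX5 higher with the block as well. In CPM the groups did not overlap in 4 of 10 members (TXN, TXN2, PRDX3 and PRDX6), all lower, where 9.63% of all genes were lower, 10.7% higher and 20.3% in either direction without overlap. In TPM this held for 2 members, TXN2 and PRDX6, where the share of all genes was 6.41% lower and 15.3% higher. The median log2 fold change without the block was -0.22 over the 10 members and 0.02 over all genes tested. It was -0.25 over the 5 cytosolic and -0.26 over the 3 mitochondrial members. The mitochondrial median is the value of PRDX3 and does not register the size of the TXN2 difference. It therefore cannot show that the compartments are alike. Of the mitochondrial members only TXN2 was called in either fit. The 0 members called higher without the block stand beside 0 at an unadjusted p under 0.05, and beside 0 called higher by DESeq2 in either fit. Of all 13003 genes tested, 896 were higher at that unadjusted p without the block. All of these counts are read as description, since the rule used this contrast.

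**Figure D3:**
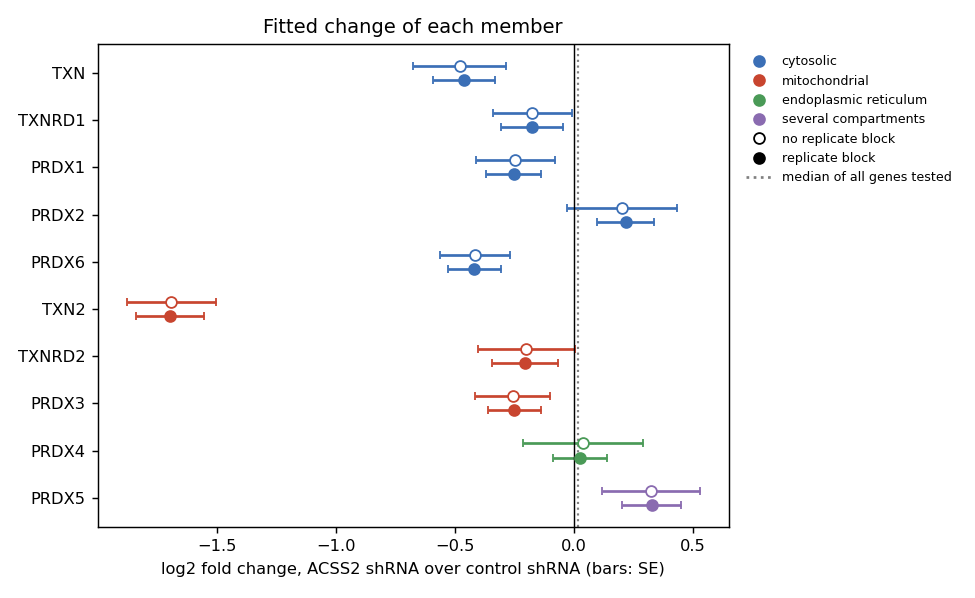
Fitted log2 fold change (x axis) of the 10 genes (y axis), ACSS2 shRNA over control shRNA, from edgeR with bars of 1 SE. Open points are without and filled points with the replicate block, colour gives the compartment, and the dotted line is the median of all genes tested. TXN2 lies at -1.69 and -1.70, and the other 9 genes lie between -0.48 and 0.33.

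The authors' deposited table gives log2 fold changes of -1.72 for TXN2 (q = 1.34e-10), -0.50 for TXN (q = 0.289) and -0.44 for PRDX6 (q = 0.21) from DESeq2. For the other 7 members the authors' deposited table gives q values of 0.646 or more. For ACSS2 itself it gives a log2 fold change of -1.07 (q = 0.772).

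The gene models behind these counts are broader than RefSeq's for several members, which bears on which reads a gene received. The table places TXN2 from 36388567 to 36482136 on chromosome 22, a span of 93570 bases that covers no other protein-coding gene of RefSeq. Its span of TXNRD1 (104215779 to 104762014 on chromosome 12) takes in CHST11, and that of PRDX2 (12780973 to 12805919 on chromosome 19) takes in JUNB. JUNB, a component of the AP-1 transcription factor, was at 340, 485 and 506 CPM in control replicates 1, 2 and 3 and at 601, 947 and 938 CPM in ACSS2 shRNA replicates 1, 2 and 3. JUNB was thus higher in ACSS2 shRNA libraries and lowest in libraries numbered 1, where PRDX2 was highest. Whether any of its reads entered the PRDX2 counts was not tested. For TXN and the peroxiredoxins, processed pseudogenes can also share reads, so small differences of these genes are uncertain.

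Replicate number was tested as a separate contrast, which was not used to choose the members. PRDX2 and PRDX4 differed between the numbers in edgeR's F test with group in the model (adjusted p = 0.0157 and 0.00503). For PRDX2 the fitted level of number 2 was lower than number 1 by -0.58 and that of number 3 by -0.46 on the log2 scale. For PRDX4 the values were -0.50 and -0.69. In both genes the library numbered 1 was the highest of its group in control and in ACSS2 shRNA cells. The same test called 38.7% of all genes tested, so such a difference is not particular to these 2 peroxiredoxins. The call of PRDX2 was lost without control replicate 1 (edgeR adjusted p = 0.0533) and without control replicate 2 (adjusted p = 0.149), while PRDX4 was called without any 1 library (adjusted p between 0.00392 and 0.0172).

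PRDX5 missed the threshold between replicate numbers (edgeR adjusted p = 0.0520), and was called without control replicate 1 (adjusted p = 0.0166) and without ACSS2 shRNA replicate 1 (adjusted p = 0.0342). DESeq2's likelihood ratio test called PRDX5 as well (adjusted p = 0.0384), which made 3 members. TXN was called without ACSS2 shRNA replicate 1 only (adjusted p = 0.0492). For TXN2, edgeR gave an adjusted p of 0.598 for replicate number, with fitted values of -0.10 for number 2 and 0.10 for number 3 against number 1. The other members (TXNRD1, TXNRD2, PRDX1, PRDX3 and PRDX6) had adjusted p values of 0.243 to 0.884. In all, 2 of 10 members were called, against 38.7% of all genes tested, so the system as a whole showed no surplus of differences between replicate numbers.

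**Figure D4:**
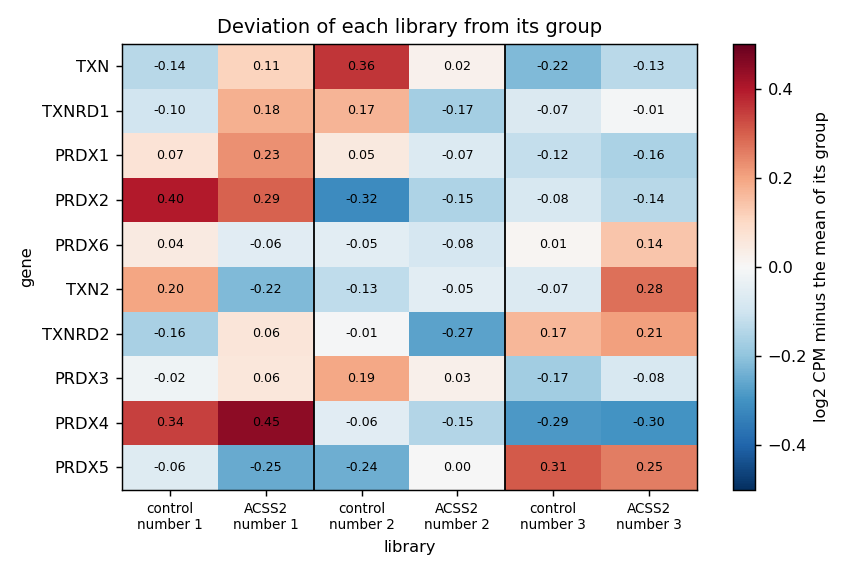
Deviation of each library from the mean of its group in log2 CPM, for the 10 genes (rows) in the 6 libraries (columns, ordered by replicate number with black lines between numbers). Red is above and blue below the group mean, and cells print the value. PRDX2 and PRDX4 are above their group mean in both libraries numbered 1, and PRDX5 is above it in both libraries numbered 3.

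The RefSeq promoters (GRCh38.p14) of TXNRD1 (plus strand) and of its substrate TXN (minus strand) are shown because only the first holds the motif described next, from 250 bases before to 50 bases after the gene's start, 5′ to 3′. Promoters were given for 7 of the 10 members (TXN, TXNRD1, TXNRD2, PRDX2, PRDX3, PRDX4 and PRDX5). Capitals mark matches on either strand to the core of the antioxidant response element, TGACNNNGC, to which NRF2 binds. TXN is at chr9:110256458-110256757 and TXNRD1 at chr12:104215529-104215828.
TXN: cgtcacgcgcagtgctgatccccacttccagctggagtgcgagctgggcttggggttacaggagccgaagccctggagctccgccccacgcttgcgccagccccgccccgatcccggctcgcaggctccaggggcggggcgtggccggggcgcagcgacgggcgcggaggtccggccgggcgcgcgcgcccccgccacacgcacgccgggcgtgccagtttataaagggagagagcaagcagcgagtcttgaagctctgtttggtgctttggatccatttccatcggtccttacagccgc
TXNRD1: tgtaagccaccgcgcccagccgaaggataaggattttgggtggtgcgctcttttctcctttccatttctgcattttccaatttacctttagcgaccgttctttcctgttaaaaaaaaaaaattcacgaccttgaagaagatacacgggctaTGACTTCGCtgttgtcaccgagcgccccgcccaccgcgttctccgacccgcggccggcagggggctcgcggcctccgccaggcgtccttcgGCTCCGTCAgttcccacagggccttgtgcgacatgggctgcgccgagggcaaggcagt
TXNRD1 was the only 1 of the 7 with such a match and holds it in 2 places, 99 bases before the start on the forward strand and 8 bases before it on the reverse strand. Of 35116 promoters of the same length, 13.3% hold at least 1. None of the 7 holds an E2F site (TTTCCCGC or TTTGGCGC, either strand, in 2.27% of all promoters) or the palindromic site of nuclear respiratory factor 1 (1.24%). The windows start at the RefSeq gene start, and sites farther away or at other starts were not looked for.

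Other genes around the system were taken from 8 lists by role. The lists were chosen with earlier results of these data known, and genes were named after their values in this contrast were seen. Their differences and p-values between the groups are therefore a description and no independent support. Of the 66 genes, 65 were found and tested. Superoxide dismutase SOD2, the kinase MAP3K5 and the arrestin-like ARRDC4 were higher in ACSS2 shRNA cells with the replicate block, while the ribonucleotide reductase subunits RRM1 and RRM2 and the NADPH genes NADK and NNT were lower. With the block 15 were called higher, 7 lower and 43 were not called, beside 12.7% of all genes called higher and 12.4% called lower. The same shares are the background of each list's count below, and no list was tested against them. Without the block edgeR called 0. At an unadjusted p under 0.05 it had 8 higher and 3 lower genes, beside 896 higher and 924 lower of all 13003 genes tested. DESeq2 without the block called SOD2, MAP3K5 and SECISBP2 higher and none lower, where it called 3.64% of all genes. Of the 22 called with the block, SOD2, MAP3K5, ARRDC4, RRM1, RRM2, TXNDC11, NADK and SECISBP2 were also called with the block by DESeq2, by limma on log2(TPM + 1) and without any 1 replicate number, and the other 14 lost the call in at least 1 of these. The median log2 fold change over the 65 genes was -0.02 without the block, against 0.02 over all genes.

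Of 9 partners and regulators of thioredoxin, 4 were called higher and 0 lower with the block. They were ARRDC4, an arrestin-like relative of TXNIP (18.8 ± 10.4 to 31.6 ± 11.3 CPM, log2 fold change 0.85, SE 0.16, edgeR adjusted p = 0.00265), and SESN1, SESN2 and SESN3, the sestrins. Groups overlap in ARRDC4, SESN2 and SESN3, and each of them differed between replicate numbers (edgeR adjusted p = 0.000414, 0.00248 and 0.0294). SESN3 went from 9.99 ± 4.19 to 16.1 ± 3.20 CPM (0.76, adjusted p = 0.0116). Its call was lost without replicate 1 (0.51, adjusted p = 0.0537). SESN1 and SESN2 (0.64 and 0.42) were not called without replicate 1 (adjusted p = 0.145 and 0.0549) or without replicate 2 (adjusted p = 0.180 and 0.202), and SESN1 was not called by DESeq2 with the block (adjusted p = 0.151). TXNIP, which binds and inhibits thioredoxin and is named here after its values were seen, was at 265, 1054 and 2153 CPM in control replicates 1, 2 and 3 and at 250, 538 and 1933 CPM in ACSS2 shRNA replicates 1, 2 and 3. TXNIP differed between replicate numbers (edgeR adjusted p = 9.77e-06) far more than between groups, where its log2 fold change with the block was -0.40 (adjusted p = 0.0982). With the block TXNIP was called lower without replicate 1 (-0.57), without replicate 3 (-0.53) and by DESeq2 (adjusted p = 0.0452).

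Of 9 thioredoxin clients, 1 was called higher and 3 lower with the block. MAP3K5 (ASK1), a stress kinase held inactive by reduced thioredoxin, was at 12.2, 15.9 and 10.3 CPM in control and at 24.7, 27.2 and 25.4 CPM in the ACSS2 shRNA libraries in the same order, with no overlap. MAP3K5 rose by 1.02 on the log2 scale with the block (SE 0.14, edgeR adjusted p = 0.000436), and without the block it was not called (adjusted p = 0.104). RRM2, the small subunit of ribonucleotide reductase, was at 288, 125 and 36.9 CPM in control and at 138, 63.1 and 28.4 CPM in ACSS2 shRNA replicates 1, 2 and 3. It fell by 0.83 on the log2 scale with the block (adjusted p = 0.00122), although the groups overlap. RRM1, the large subunit, and MSRB3, a methionine sulfoxide reductase, fell as well (-0.64 and -0.44). The groups overlap in RRM1 too, and RRM1 and RRM2 differed between replicate numbers (edgeR adjusted p = 0.000851 and 4.78e-06). The call of MSRB3 was lost without replicate 2 or 3 and on log2 TPM (adjusted p = 0.0676, 0.0866 and 0.319).

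Among enzymes that remove superoxide and peroxide, SOD2 and CAT (catalase) rose with the block and 4 of the 6 tested did not pass. SOD2, the manganese superoxide dismutase of mitochondria, was at 198, 247 and 217 CPM in control and at 472, 481 and 451 CPM in ACSS2 shRNA replicates 1, 2 and 3. All ACSS2 shRNA libraries lay far above the controls, in the opposite direction to TXN2. The log2 fold change of SOD2 was 1.08 (SE 0.16, edgeR adjusted p = 0.0650) without and 1.09 (SE 0.12, adjusted p = 0.000126) with the block, and with no filter on low counts it passed without the block too (adjusted p = 0.0457). CAT went from 61.3 ± 8.24 to 80.4 ± 19.1 CPM (0.38, adjusted p = 0.0363 with the block). CAT was not called once replicate 1, 2 or 3 was left out (log2 fold changes 0.24, 0.44 and 0.40, edgeR adjusted p = 0.151, 0.0804 and 0.0600), nor by DESeq2 with the block (adjusted p = 0.0727).

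Of 10 genes that supply NADPH, from which thioredoxin reductase takes its electrons, 0 were called higher and 2 lower with the block. NADK, the cytosolic NAD kinase, went from 63.9 ± 3.78 to 44.5 ± 11.6 CPM (-0.55, SE 0.13, edgeR adjusted p = 0.00847). NNT, the proton-driven transhydrogenase that makes NADPH in mitochondria, was at 37.0, 44.2 and 39.9 CPM in control and at 26.9, 30.9 and 29.3 CPM in the ACSS2 shRNA libraries in the same order, with no overlap (-0.47, SE 0.12, adjusted p = 0.0109). Its call was lost without replicate 2 (-0.49, adjusted p = 0.0633) and on log2 TPM (adjusted p = 0.0706). Of 8 glutaredoxin and glutathione genes none passed with the block, with GLRX3 (-0.33, adjusted p = 0.0571) and GSS (-0.27, adjusted p = 0.0839) nearest to it. The table's span of ACSS2 reaches into GSS, so reads between these 2 genes may be shared.

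Of 12 thioredoxin-fold proteins, 5 were called higher and 1 lower with the block. Those called higher were TXNDC11 (16.2 ± 2.17 to 26.3 ± 6.62 CPM, 0.68, edgeR adjusted p = 0.00305), TXNDC15 and the disulfide isomerases of the endoplasmic reticulum PDIA3, PDIA4 and PDIA6. PDIA4 went from 189 ± 5.29 to 262 ± 25.5 CPM (0.47, adjusted p = 0.0104), and its call was lost without replicate 2 (0.48, adjusted p = 0.0818) and without replicate 3 (0.40, adjusted p = 0.0673). PDIA3 and PDIA6 were not called without replicate 2 (adjusted p = 0.238 and 0.242) or without replicate 3 (adjusted p = 0.0883 and 0.0604), and TXNDC15 not without replicate 1 or 2 (adjusted p = 0.0667 and 0.278) or by DESeq2 with the block (adjusted p = 0.0757). TXNDC9 was called lower (-0.40), but not without replicate 2 or 3 (edgeR adjusted p = 0.271 and 0.0548). Neither DESeq2 with the block (adjusted p = 0.0742) nor limma on log2 TPM (adjusted p = 0.121) called it. Of 5 genes for selenoprotein synthesis, on which thioredoxin reductases depend, SECISBP2 rose from 30.7 ± 3.69 to 50.8 ± 8.23 CPM (0.72, SE 0.13, adjusted p = 0.00242) and SEPHS2 from 38.2 ± 9.30 to 49.1 ± 7.25 CPM (0.38, adjusted p = 0.0367). SEPHS2 was not called once replicate 2 or 3 was left out (log2 fold changes 0.39 and 0.27, edgeR adjusted p = 0.141 and 0.243), nor by DESeq2 with the block (adjusted p = 0.0966). Of the 6 genes of the NRF2 system, the target NQO1 fell from 59.3 ± 15.1 to 40.4 ± 19.5 CPM (-0.61, adjusted p = 0.0114), and was not called without replicate 2 (-0.41, adjusted p = 0.114). BACH1, a repressor of NRF2 targets, rose from 65.7 ± 26.0 to 85.8 ± 17.3 CPM (0.45, adjusted p = 0.0256), and was not called without replicate 1 (0.26, adjusted p = 0.121) or without replicate 2 (0.46, adjusted p = 0.0803). Groups overlapped in NQO1 and in BACH1, and both differed between replicate numbers (edgeR adjusted p = 0.00420 and 0.00296).

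**Figure D5:**
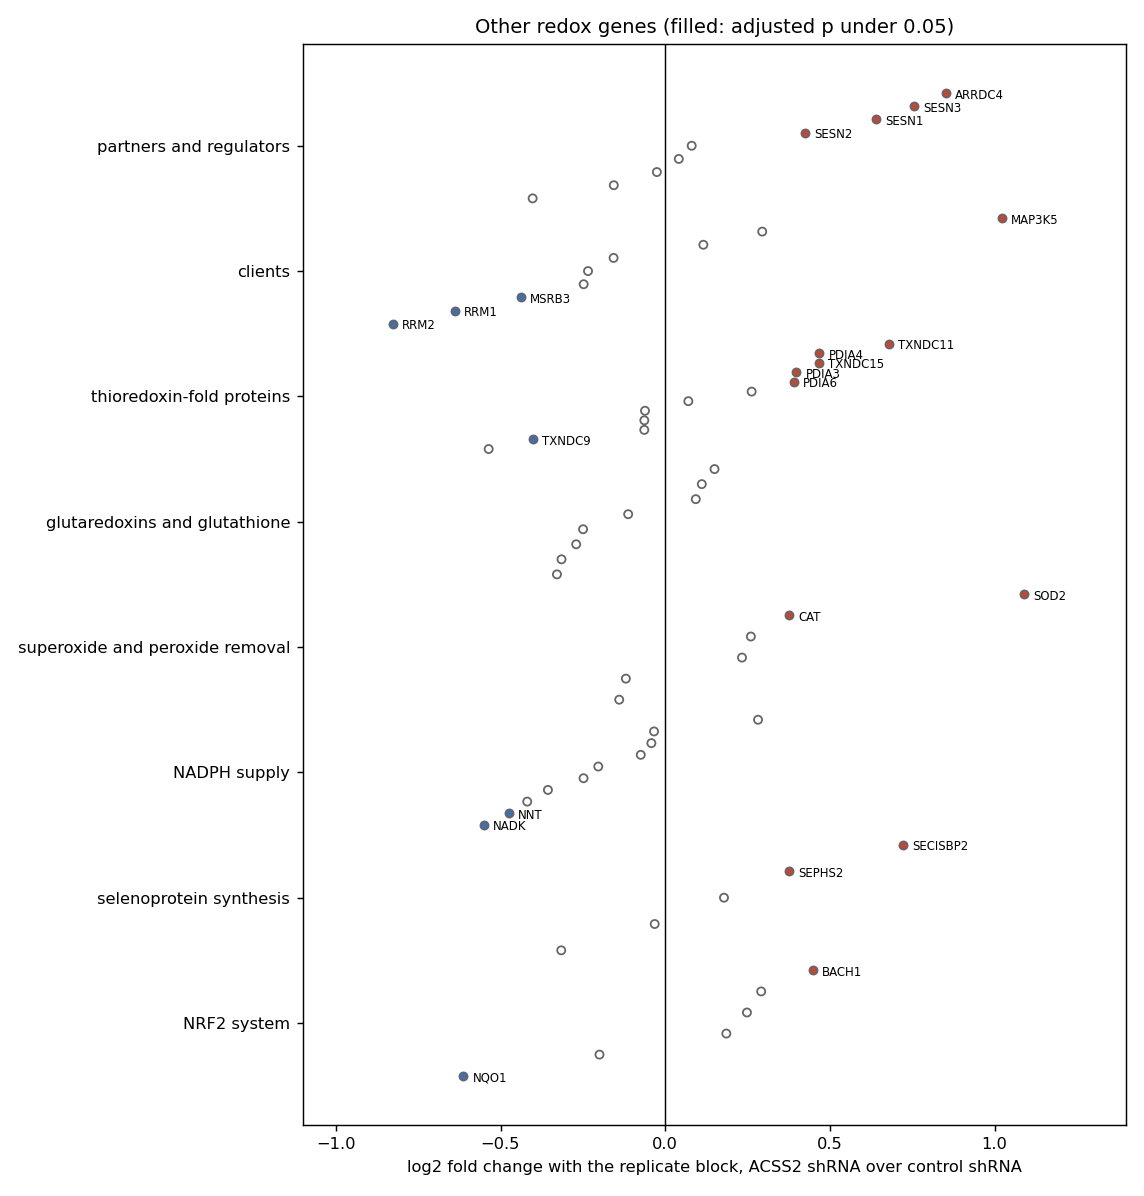
Log2 fold change with the replicate block (x axis) of the 65 other redox genes tested, by list (y axis). Each point is 1 gene, filled in red where it was called higher, in blue where called lower and open where not called. SOD2 (1.09) and MAP3K5 (1.02) lie farthest to the right, and RRM2 (-0.83) farthest to the left.

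The genes whose log2 CPM followed TXN2 most closely over the 6 libraries were CARM1 (Pearson r = 0.997), EMP1 (0.996), MAPKAPK3 (0.995), ACAT2 (0.995) and USB1 (0.995). All 5 are lower in ACSS2 shRNA cells, by 0.79 to 1.24 on the log2 scale without the block, so these r values include the group difference, and its part in them was not tested. CARM1, an arginine methyltransferase, went from 313 ± 31.1 to 174 ± 14.8 CPM, and ACAT2, the cytosolic acetoacetyl-CoA thiolase, from 52.7 ± 6.29 to 22.8 ± 3.05 CPM. Taken as deviations from the group means, which removes the group difference, the nearest were C7orf26 (0.998), TNFRSF10C (0.995), RNPS1 (0.990), LITAF (0.987) and SMYD5 (0.985). These r values are a description over 6 libraries that share a cell line, chosen as the highest of 13003 genes. No gene is in both lists, so the genes nearest to TXN2 depended on whether the group difference was kept.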

How the data were processed

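The authors deposited 1 table of RNA-seq values for 6 libraries, sequenced on DNBSEQ after oligo(dT) enrichment, per the labels. HISAT, Bowtie2 and RSEM are listed in the submitters' processing notes, without version; annotation and strand handling are not given here. The expected counts deposited by the authors were rounded and tested; the deposited TPM values served for levels. From the authors' deposited comparison, log2 fold changes and q-values are quoted. The 6 FPKM columns were not used, and 565 lines of spilled annotation text were left out.

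Groups were compared by edgeR 4.0.16's quasi-likelihood test (R 4.3.3; TMM; filterByExpr, minimum count 10, minimum total 15) over 13003 genes, with calls at a Benjamini-Hochberg adjusted p under 0.05, without and with replicate number as a block. SE is the absolute log2 fold change over the square root of F. The batch tag pairs the libraries: deviations from group means correlated by 0.716, 0.494 and 0.740 within numbers 1, 2 and 3, across genes, against a minimum of 0.1. DESeq2 1.42.0, limma 3.58.1 on log2(TPM + 1) or log2(TPM + 0.5), no filter and leave-outs were alternatives. The scripts were tested on simulated data.

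Named are all 10 members, ACSS2, the 2 genes of each related list with the smallest p with the block and any called without it, and the 5 genes most like TXN2 by each of 2 measures. The members and lists were chosen with earlier results of these data known. Other called genes of a list are named to complete its count, after their values were seen. Nothing states that replicates were separate transductions, so p-values measure the spread between these libraries, which may be technical.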

Additional observations from a re-analysis of the deposited data

How the results depend on the processing

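Without the block, 1 member (TXN2) was called lower and 0 higher. With the replicate block 3 were called lower, and likewise 3 with DESeq2 and the block, with no filter and the block, and for limma on blocked log2 TPM at either pseudocount. Leave-outs gave 0 lower without the block and 1 to 4 lower with it (4 without replicate 1, 1 without replicate 2, 3 without replicate 3). Over all genes, 0 to 5 were called lower in the leave-outs without the block, and 1383, 917 and 1554 with the block without replicates 1, 2 and 3. Higher calls numbered 2 for limma on blocked log2 TPM at either pseudocount, and 0 to 1 over leave-outs (1 with the block without replicate 1). Among related genes, 0 were called without the block. With the replicate block 7 were lower and 15 higher; with DESeq2 and the block 7 and 11; with no filter and the block 12 and 15; for limma on blocked log2 TPM 4 and 20 at either pseudocount. Over all genes these settings called 1608 lower and 1657 higher, 1381 and 1109, 1895 and 1599, and 1071 and 2302 (pseudocount 1). On log2 TPM higher calls thus took a larger share both of related genes and of all genes. Leave-outs gave 0 to 12 lower and 0 to 10 higher, with the block 12 and 9 without replicate 1, 3 and 6 without replicate 2, and 7 and 10 without replicate 3. Higher related calls were 3 with DESeq2 without the block and 1 with no filter. Members differing between replicate numbers were 2, with a range of 1 (without control replicate 2) to 4 (without ACSS2 shRNA replicate 1) over leave-outs.

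PRDX4, never called, changed sign in its log2 fold change to -0.0007 with DESeq2 and the block, to -0.0001 with no filter and the block, to -0.037 with the block without replicate 1, and over leave-outs ranged from -0.2374 to 0.2299. The other 9 members kept their direction in all 22 settings. The log2 ratio of TXN2 to TXN moved by less than 1 SD in TPM and over leave-outs, as did those of TXNRD2 to TXNRD1 and PRDX3 to PRDX1. The causes were not tested. Levels in FPKM were not run, because those columns were not used. TXNRD2 had the fewest counts of the members.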
